A study of Homo sapiens with 4 samples.

Results

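The Wnt genes described here were all rows of the deposited gene tables named as Wnt ligands (WNT), Frizzled receptors (FZD), secreted inhibitors (SFRP1 to SFRP5 and DKK1 to DKK4), Dishevelled proteins (DVL1 to DVL3) or R-spondin receptors (LGR4 to LGR6). LRP5, LRP6, AXIN1, AXIN2, APC, CTNNB1, RNF43, ZNRF3, NKD1, TCF7, TCF7L1, TCF7L2, LEF1, SP5, NOTUM and PORCN were added by name. This rule found 59 of 51103 genes, of which 29 passed a filter of at least 1 FPKM (counts scaled by gene length and library total) in at least 2 of the 4 libraries. Another 22 had counts but stayed below it, and 8 had no count in any library. Polyadenylated RNA came from SCC-15, labelled as a cell line of human oral squamous cell carcinoma (OSCC), grown in serum-containing medium. The groups were cells with lentiviral REEP6 overexpression (genotype label REEP6-overexpression, 2 libraries) and the negative control (genotype label NC, 2 libraries). The labels name no promoter for the transgene, do not say whether a line was 1 clone or what the control cells received, and do not name separate cultures behind the replicates. The p-values therefore measure only the spread between these libraries, which may be technical.

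The 4 libraries held between 12856256 and 15208629 counts. REEP6, an endoplasmic reticulum membrane protein gene and the targeted gene, had 649 and 680 counts in the REEP6 libraries, against 348 and 468 in NC. In FPKM this was 20.0 and 20.9 against 11.1 and 12.6, and the rise in the edgeR fit was 1.76-fold. Squamous markers were mostly missing: 2 of 10 (ITGB4 and EPCAM) reached 1 FPKM in any library, KRT6A and DSG3 were at 0 in all 4, and KRT5, KRT14, KRT17, TP63, SFN and CDH1 were at 0.173 FPKM or less. The values thus go against the squamous part of the label, and the cells are called here by the name on the label only. Of 10 fibroblast markers 5 reached 1 FPKM in any library, and FAP was at 0. Summed fibroblast markers were 18.3 and 18.1 FPKM in the REEP6 libraries, against 36.6 and 34.5 FPKM in NC. Most of this was COL3A1, with 14.5 and 13.9 FPKM against 25.2 and 22.1 FPKM. LUM had 1.00 and 1.35 against 6.65 and 7.91 FPKM, and POSTN and PDGFRB were lower too. Of the 5 that reached 1 FPKM, PDGFRA alone went the other way (0.986 and 1.06 against 0.663 and 0.709 FPKM). Summed squamous markers were 21.0 and 20.1 FPKM against 15.5 and 14.8 FPKM. Most of this was ITGB4, with 18.9 and 17.6 FPKM against 14.5 and 13.1 FPKM. In bulk RNA, fewer cells of a type and less RNA per cell cannot be told apart, and the part of these marker differences in the results below was not tested. Of the endothelial and melanocyte markers 0 reached 1 FPKM, and of 7 leukocyte markers 1 did.

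Wnt proteins are secreted lipid-modified ligands. They bind Frizzled receptors and the co-receptors LRP5 and LRP6, and Dishevelled proteins then inactivate a destruction complex built on Axin and APC, so that beta-catenin accumulates and works with TCF/LEF factors on target genes. R-spondins, through LGR4 to LGR6, keep Frizzled at the membrane by holding off the ubiquitin ligases RNF43 and ZNRF3. A separate branch without beta-catenin controls planar cell polarity and movement. In carcinomas the pathway is known for its part in growth and stem-like states.

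With REEP6 overexpression the R-spondin receptor LGR5 and the secreted inhibitors DKK1 and DKK3 fell by between 1.80-fold and 2.77-fold, and the transcription factor TCF7, the ligand WNT9A and the receptor FZD2 were higher. LGR4, FZD8 and APC were lower by smaller amounts. Of the 29 tested members, 3 were higher and 6 lower at a Benjamini-Hochberg adjusted p of 0.05 in edgeR's quasi-likelihood test, or 31.0% in either direction. Among all 13077 genes tested 25.1% passed, 10.9% higher and 14.2% lower, so the share among the members was not far from the background. TCF7 and WNT9A passed the filter only through the REEP6 libraries, so a count over tested members is not neutral for them. The median log2 fold change was -0.04 over the tested members and -0.01 over all genes tested. Between groups 24 of the 29 did not overlap in FPKM, against 63.5% of all genes tested, 10 with both REEP6 libraries above both controls (28.2% of all genes) and 14 below (35.3%). Scaling the libraries to equal FPKM sums shifted all genes to a median log2 fold change of -0.14 and gave 3 members higher and 10 lower, beside 5.05% and 21.6% of all genes. The share of higher calls was then 23.1% among members called, where it had been 33.3%, and 19.0% among all genes called, where it had been 43.4%.

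**Figure D1:**
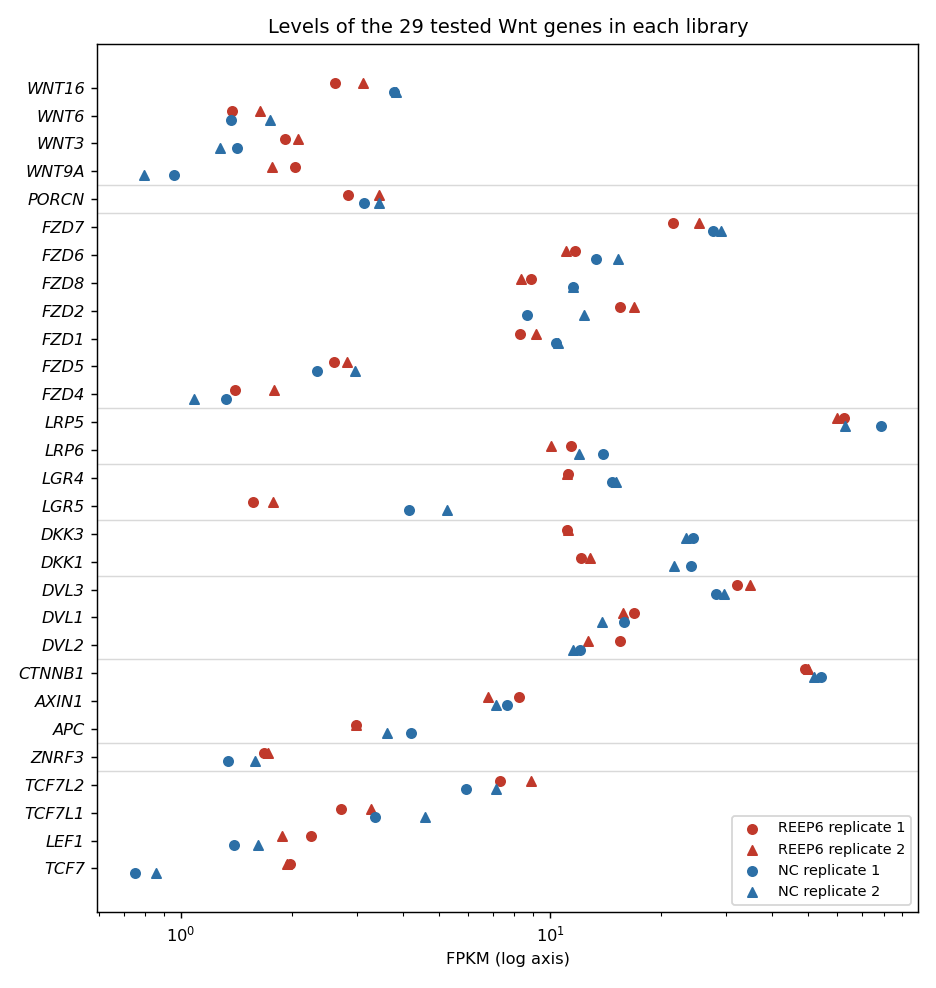
FPKM of each tested Wnt gene (log axis) in the 2 REEP6 libraries (red) and the 2 NC libraries (blue), with circles for replicate 1, triangles for replicate 2 and grey lines between roles. LGR5, DKK1 and DKK3 lie left of their controls, and TCF7 and WNT9A right of theirs, with no overlap.

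Ligand messages were scarce. The 19 WNT genes summed to 9.35 and 9.94 FPKM in the REEP6 libraries, against 9.13 and 9.4 FPKM in NC, and 6 of them (WNT1, WNT2, WNT3A, WNT7A, WNT8A and WNT9B) had no count, which allows up to 3 counts in each (counting error only). WNT16, which acts on bone in mice, was the most abundant, with 2.62 and 3.11 FPKM in the REEP6 libraries, against 3.77 and 3.83 FPKM in NC. The REEP6 values were below both controls, yet the difference did not pass (log2 fold change -0.38 ± 0.174 SE, edgeR adjusted p 0.138).

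WNT9A, a ligand of joint development in mice (ENSG00000143816, chromosome 1, 227918656 to 227947898, minus strand, GRCh38), had 2.04 and 1.76 FPKM in the REEP6 libraries, against 0.96 and 0.795 FPKM in NC, from 107 and 93 against 49 and 48 counts. Both REEP6 libraries stood above both controls. It rose 2.21-fold (log2 fold change 1.14 ± 0.239 SE, edgeR adjusted p 0.00857), and the call ended with limma on log2(FPKM + 0.1), where the adjusted p was 0.0527. WNT9A met the filter only through the REEP6 libraries, and in the fit without the filter its log2 fold change was 1.16 ± 0.252 SE. WNT3, needed for limb formation in humans, had 1.92 and 2.08 FPKM with REEP6 and 1.42 and 1.27 FPKM in NC, without overlap, and fell short of the threshold (log2 fold change 0.60 ± 0.201 SE, edgeR adjusted p 0.0544). It passed without the filter on low counts (adjusted p 0.0462) and with edgeR's own filter (0.0493). WNT6 had 1.38 and 1.63 FPKM against 1.37 and 1.74 FPKM, and these groups overlapped.

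Below the filter, WNT11, a ligand mostly of the non-canonical branch, had 11 and 16 counts with REEP6 against 25 and 25 in NC. WNT2B had 28 and 32 against 32 and 50 counts, but 21.2% of its exon bases are shared with ST7L on the other strand, and the strand setting of the counting is not given. WNT10B had 15 and 8 against 5 and 19 counts. WNT7B, a ligand of lung development in mice that is named here after its values were seen, had 12 and 11 counts with REEP6 against 3 and 1 in NC. The REEP6 counts were above both controls, and in a fit without the filter it passed on these few counts (log2 fold change 2.56 ± 0.932 SE, edgeR adjusted p 0.0456). WNT4, WNT5A, WNT5B, WNT8B and WNT10A had at most 10 counts in any library.

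PORCN, the membrane-bound acyltransferase that attaches the lipid to Wnt ligands, had 2.84 and 3.45 FPKM with REEP6 against 3.13 and 3.43 FPKM in NC, and the groups overlapped (log2 fold change -0.04 ± 0.186 SE, edgeR adjusted p 0.91). By share of the summed ligand FPKM, WNT9A made up 21.8% and 17.7% with REEP6, against 10.5% and 8.46% in NC. WNT16 took 28% and 31.3% with REEP6, against 41.3% and 40.8% in NC. These shares describe the same values and carry no test of their own.

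**Figure D2:**
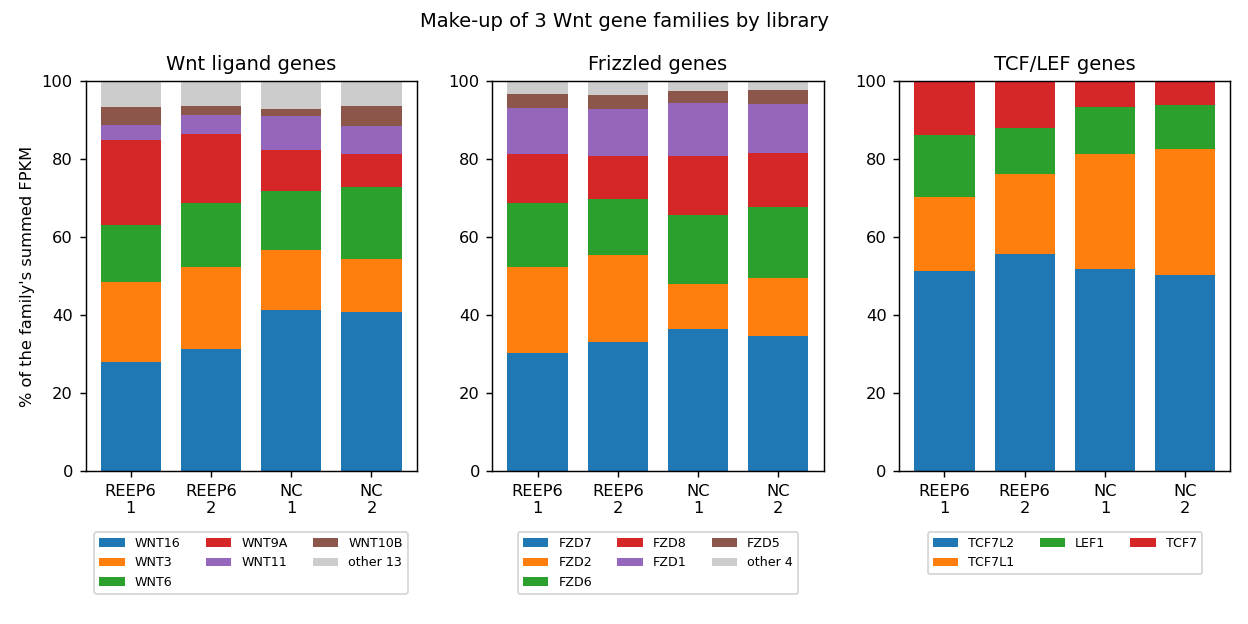
Share (%) of the summed FPKM of the Wnt ligand, Frizzled and TCF/LEF genes taken by each gene, with 1 stacked bar for each library, REEP6 left and NC right. WNT9A, FZD2 and TCF7 take larger shares in both REEP6 bars than in both NC bars, and WNT16 and TCF7L1 smaller ones.

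Frizzled genes code for the seven-pass receptors of Wnt ligands. Of 10 genes 7 were tested, 1 rose and 1 fell, or 28.6% called beside 25.1% of all genes tested. Their summed level was 70.7 and 76.2 FPKM in the REEP6 libraries, against 75.6 and 83.5 FPKM in NC. FZD2 (ENSG00000180340, chromosome 17, 44557459 to 44559570, plus strand), a receptor linked to the non-canonical branch, had 15.5 and 16.9 FPKM in the REEP6 libraries, against 8.65 and 12.3 FPKM in NC. REEP6 values exceeded both controls, of which replicate 1 was the lower. It rose 1.56-fold (log2 fold change 0.65 ± 0.165 SE, edgeR adjusted p 0.0197). Without NC replicate 1 the value was 0.42 and the call ended (adjusted p 0.0516), and limma did not pass it on log2(FPKM + 1) (0.0724) or log2(FPKM + 0.1) (0.0766).

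FZD8, a close relative of FZD5, had 8.87 and 8.36 FPKM with REEP6 against 11.5 and 11.5 FPKM in NC, without overlap. It fell 1.31-fold (log2 fold change -0.39 ± 0.0995 SE, edgeR adjusted p 0.0191), and the call ended without REEP6 replicate 2 (adjusted p 0.127), without NC replicate 2 (0.0524) and with DESeq2 (0.0615). FZD7, the most abundant Frizzled gene, had 21.5 and 25.3 FPKM against 27.6 and 29 FPKM. FZD6, which acts in planar polarity of mouse hair, had 11.7 and 11 FPKM against 13.3 and 15.2 FPKM. FZD1 had 8.27 and 9.17 FPKM against 10.4 and 10.5 FPKM. For these last 3 both REEP6 libraries were the lower ones, with log2 fold changes between -0.31 and -0.23 and edgeR adjusted p-values from 0.0585 to 0.0966. With equal FPKM sums all 3 passed (adjusted p 0.0238 for FZD7, 0.0114 for FZD6 and 0.0227 for FZD1), and FZD6 also passed without NC replicate 1 (0.0204), with library totals (0.0436) and with a filter of 5 FPKM (0.0452).

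FZD4, the receptor of Norrin in retinal vessels, had 1.4 and 1.79 FPKM with REEP6 against 1.33 and 1.09 FPKM in NC, without overlap (log2 fold change 0.43 ± 0.197 SE, edgeR adjusted p 0.134), while 18.9% of its exon bases are shared with the far more abundant PRSS23 on the other strand. FZD5 had 2.59 and 2.82 FPKM against 2.33 and 2.96 FPKM, with overlapping groups. FZD3, known from axon guidance in mice, stayed below the filter with 78 and 104 counts against 61 and 52. The groups did not overlap, and it passed in the fit without the filter (log2 fold change 0.80 ± 0.25 SE, edgeR adjusted p 0.0135). FZD9 had 16 and 10 against 5 and 23 counts, and FZD10 had none.

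The co-receptors LRP5 and LRP6 bind Wnt together with Frizzled. LRP5, among the most abundant members, had 62.4 and 60 FPKM in the REEP6 libraries, against 78.8 and 63 FPKM in NC. LRP6 had 11.4 and 10 FPKM with REEP6 against 13.9 and 12 FPKM. The REEP6 values were the lower ones for each gene, although NC replicate 2 lay close to them. Neither passed, with a log2 fold change of -0.18 ± 0.109 SE for LRP5 (edgeR adjusted p 0.245) and -0.24 ± 0.106 SE for LRP6 (0.121). Without NC replicate 2 both passed (log2 fold changes -0.31 and -0.32, adjusted p 0.0487 and 0.0492), and LRP6 also did with equal FPKM sums (0.0362).

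Of the R-spondin receptors, LGR5 showed the largest fall among all tested members. LGR5 marks stem cells of the intestine and other epithelia and is itself a known Wnt target (ENSG00000139292, chromosome 12, 71439770 to 71586310, plus strand). It had 1.57 and 1.78 FPKM in the REEP6 libraries, against 4.15 and 5.26 FPKM in NC, from 109 and 124 against 280 and 420 counts. The 2 groups stood far apart, REEP6 below NC. The fall was 2.77-fold (log2 fold change -1.47 ± 0.175 SE, edgeR adjusted p 0.000804), and it ranked 77 by size among the 1854 genes that fell. LGR5 overlaps TSPAN8 on the other strand, which fell in the same libraries (46 and 61 counts with REEP6 against 229 and 281 in NC, log2 fold change -2.14, edgeR adjusted p 0.000251). It also overlaps AC090116.1 on its own strand, which had 4 and 5 counts with REEP6 against 10 and 15 in NC. AC090116.1 did not pass (log2 fold change -1.34, edgeR adjusted p 0.165). The annotation gives LGR5 0 exon bases shared with either gene, and the part of reads from outside annotated exons was not tested.

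LGR4, the widely expressed relative of LGR5, had 11.2 and 11.1 FPKM with REEP6 against 14.7 and 15 FPKM in NC. The libraries of each group lay close together and did not overlap with the other group. It fell 1.31-fold (log2 fold change -0.39 ± 0.0867 SE, edgeR adjusted p 0.0112), and the call ended without REEP6 replicate 2 (adjusted p 0.0583). LGR6 had at most 6 counts in any library. R-spondin genes themselves were nearly absent, since RSPO1, RSPO3 and RSPO4 had no count in any library and RSPO2 at most 1.

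Secreted inhibitors were represented by DKK1 and DKK3, and both fell. DKK1 blocks LRP5 and LRP6 and is a known Wnt target (ENSG00000107984, chromosome 10, 52314296 to 52318042, plus strand). It had 12.2 and 12.8 FPKM in the REEP6 libraries, against 24.1 and 21.6 FPKM in NC. Neither REEP6 library came near the lower control. The fall was 1.8-fold (log2 fold change -0.85 ± 0.107 SE, edgeR adjusted p 0.00101). DKK3 (ENSG00000050165, chromosome 11, 11963106 to 12009769, minus strand) is a divergent family member that is often silenced in carcinomas and whose place in Wnt signalling is unsettled. It had 11.1 and 11.2 FPKM with REEP6 against 24.4 and 23.4 FPKM in NC. The libraries of each group lay close together, and the fall of 2.1-fold had the smallest adjusted p of all members (log2 fold change -1.07 ± 0.0878 SE, edgeR adjusted p 0.000141).

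The other inhibitors were scarce. NOTUM, an enzyme that removes the lipid from Wnt ligands and is a feedback target, had 0 and 0 counts with REEP6 against 7 and 1 in NC. SFRP5, a secreted decoy with a Frizzled-like domain, had 8 and 2 against 11 and 7 counts. SFRP1, SFRP2, DKK2 and DKK4 had at most 3 counts in any library, and SFRP4 had none. None of these inhibitors passed in the fit without the filter.

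**Figure D3:**
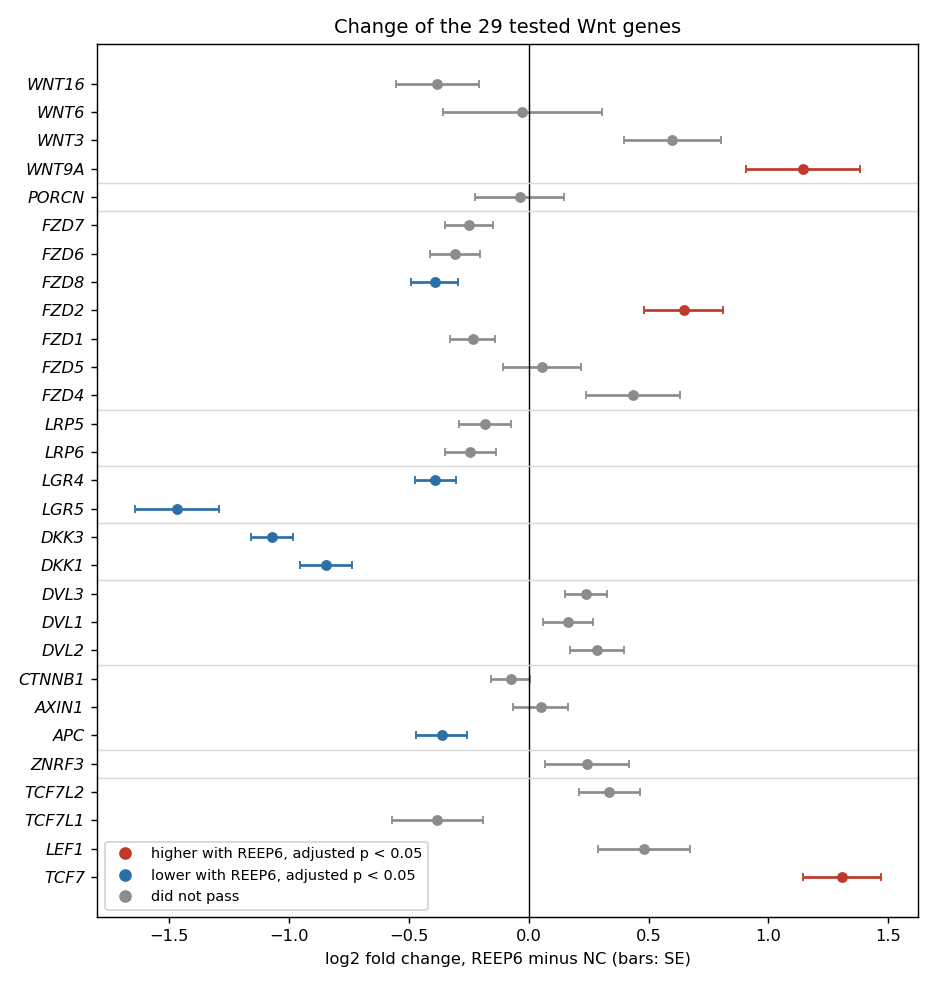
Log2 fold change of REEP6 minus NC for each tested Wnt gene, with bars of 1 SE and grey lines between roles; red and blue mark genes past an edgeR adjusted p of 0.05. LGR5 at -1.47 and TCF7 at 1.31 are the ends of the range, and most other members lie within 0.5 of zero.

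Inside the cell, the Dishevelled genes did not pass. DVL3, the most abundant, had 32 and 34.9 FPKM in the REEP6 libraries, against 28.1 and 29.6 FPKM in NC. DVL2 had 15.5 and 12.6 FPKM with REEP6 against 12 and 11.5 FPKM. In both genes the REEP6 libraries were the higher ones, by log2 fold changes of 0.24 ± 0.086 SE (edgeR adjusted p 0.069) and 0.29 ± 0.113 SE (0.0932). DVL2 passed without REEP6 replicate 2 (adjusted p 0.023), the higher of the pair being REEP6 replicate 1, and without the filter (0.048). DVL1 had 16.9 and 15.7 FPKM against 15.9 and 13.8 FPKM, with overlap (log2 fold change 0.16 ± 0.104 SE, edgeR adjusted p 0.275).

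APC, the scaffold of the destruction complex that is lost in most colorectal cancers (ENSG00000134982, chromosome 5, 112707498 to 112846239, plus strand), had 2.98 and 2.99 FPKM with REEP6 against 4.21 and 3.62 FPKM in NC. The REEP6 values were nearly equal and below both controls. It fell 1.29-fold (log2 fold change -0.36 ± 0.108 SE, edgeR adjusted p 0.0355). This call was the least stable of the 9: it ended without REEP6 replicate 1 (adjusted p 0.103), without REEP6 replicate 2 (0.105), without NC replicate 1 (0.163, log2 fold change -0.25), with DESeq2 (0.0935) and with limma on log2(FPKM + 1) (0.112) or log2(FPKM + 0.1) (0.109). CTNNB1, which codes for beta-catenin, had 49.1 and 49.9 FPKM against 54.3 and 52 FPKM, with both REEP6 values slightly below, and did not pass with a log2 fold change of -0.07 ± 0.0809 SE (edgeR adjusted p 0.539). AXIN1, the other scaffold, had 8.22 and 6.77 FPKM against 7.64 and 7.12 FPKM, with overlap. RNA levels say nothing of the amount or location of beta-catenin protein, which was not measured here.

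The feedback genes AXIN2, RNF43, NKD1 and SP5, often used as readouts of beta-catenin activity, stayed below the filter, unlike DKK1, LGR5 and TCF7, which are also known targets. AXIN2, a feedback scaffold, had 22 and 32 counts with REEP6 against 26 and 24 in NC, or 0.318 and 0.46 against 0.387 and 0.302 FPKM. The groups overlapped (fit without the filter: log2 fold change 0.23 ± 0.395 SE, edgeR adjusted p 0.782). RNF43, a ligase that clears Frizzled, had 4 and 8 against 19 and 9 counts, and NKD1, an inhibitor of Dishevelled, had 2 and 13 against 3 and 8. SP5, a transcription factor induced by Wnt, had 0 and 0 against 2 and 5 counts. ZNRF3, the relative of RNF43, passed the filter, with 1.68 and 1.73 FPKM against 1.34 and 1.59 FPKM. Its REEP6 libraries were the higher ones, and the difference did not pass (log2 fold change 0.24 ± 0.174 SE, edgeR adjusted p 0.338).

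Among the DNA-binding partners of beta-catenin, TCF7 had the largest rise of all tested members. TCF7 codes for TCF-1, best known from T cells and as a Wnt target (ENSG00000081059, chromosome 5, 134114711 to 134151865, plus strand). It had 1.97 and 1.93 FPKM in the REEP6 libraries, against 0.75 and 0.856 FPKM in NC, from 263 and 259 against 97 and 131 counts. Both REEP6 libraries stood above both controls. The rise was 2.47-fold (log2 fold change 1.31 ± 0.163 SE, edgeR adjusted p 0.000971), and it ranked 38 by size among the 1422 genes that rose. TCF7 met the filter only through the REEP6 libraries, so this rank is not neutral. In the fit without the filter its log2 fold change was 1.32 ± 0.188 SE. On the log2(FPKM + 1) scale of limma the value was 0.71, since a pseudocount shrinks low genes. TCF7 shares 210 of 10063 exon bases with SKP1 on the other strand, which did not pass (log2 fold change -0.09, edgeR adjusted p 0.572).

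LEF1, the closest relative of TCF7, had 2.25 and 1.88 FPKM with REEP6 against 1.39 and 1.62 FPKM in NC, without overlap (log2 fold change 0.48 ± 0.192 SE, edgeR adjusted p 0.0951). TCF7L2, the main factor of this family in epithelia, had 7.31 and 8.89 FPKM against 5.9 and 7.15 FPKM (log2 fold change 0.34 ± 0.128 SE, edgeR adjusted p 0.0822). TCF7L2 passed without REEP6 replicate 1 (adjusted p 0.0211), without NC replicate 2 (0.0115) and without the filter (0.028). TCF7L1, which acts mostly as a repressor, had 2.72 and 3.27 FPKM with REEP6 against 3.35 and 4.57 FPKM (log2 fold change -0.38 ± 0.19 SE, edgeR adjusted p 0.17) and passed without NC replicate 1 (log2 fold change -0.59, adjusted p 0.0351). Within the summed FPKM of the 4 TCF/LEF genes, TCF7 made up 13.8% and 12.1% with REEP6, against 6.58% and 6.03% in NC. TCF7L1 made up 19.1% and 20.5% with REEP6, against 29.4% and 32.2% in NC. The share of TCF7 was higher and that of TCF7L1 lower in both REEP6 libraries, while of these genes TCF7 alone passed the test as reported.

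Promoter sequences were read from RefSeq (GRCh38.p14), as 250 bases before to 50 bases after each listed start. A listed start can differ from the gene start given with the coordinates above. Of the 59 members 41 had an entry, in 52 windows. Among the called members 6 had an entry, while LGR5, DKK3 and FZD2 had none and were not searched. The windows were searched on both strands for CTTTGAT and CTTTGAA, forms of the site that TCF/LEF factors bind, which do not overlap each other. Either was found in 2 of the 52 windows (3.85%), against 2409 of 35116 windows of the same length for all genes (6.86%). A match is only a match of letters. DKK1, which fell, and SP5, which was nearly absent, hold the matches, and TCF7, which rose most, is shown with both of its windows. Capitals mark matched letters, and the sequences run 5′ to 3′ on the strand of the gene.
DKK1 (chr10:52314031-52314330, plus strand): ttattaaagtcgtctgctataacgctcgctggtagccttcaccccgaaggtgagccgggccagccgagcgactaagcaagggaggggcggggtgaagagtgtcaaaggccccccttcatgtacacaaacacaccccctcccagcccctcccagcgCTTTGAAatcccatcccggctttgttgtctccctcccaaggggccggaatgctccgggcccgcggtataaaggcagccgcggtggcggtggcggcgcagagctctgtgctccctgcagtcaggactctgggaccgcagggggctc
SP5 (chr2:170715087-170715386, plus strand): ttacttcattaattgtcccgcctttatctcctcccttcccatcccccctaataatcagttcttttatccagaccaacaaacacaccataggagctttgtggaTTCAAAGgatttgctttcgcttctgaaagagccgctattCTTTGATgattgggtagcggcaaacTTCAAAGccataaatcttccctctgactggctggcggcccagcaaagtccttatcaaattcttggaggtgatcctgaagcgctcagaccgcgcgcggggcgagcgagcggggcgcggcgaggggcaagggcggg
TCF7 upstream start (chr5:134115363-134115662, plus strand): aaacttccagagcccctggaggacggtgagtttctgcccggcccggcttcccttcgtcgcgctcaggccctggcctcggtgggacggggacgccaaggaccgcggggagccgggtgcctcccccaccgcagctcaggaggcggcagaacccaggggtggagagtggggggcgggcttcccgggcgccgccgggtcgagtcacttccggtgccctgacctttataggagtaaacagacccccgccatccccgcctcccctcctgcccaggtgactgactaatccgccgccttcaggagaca
TCF7 downstream start (chr5:134123368-134123667, plus strand): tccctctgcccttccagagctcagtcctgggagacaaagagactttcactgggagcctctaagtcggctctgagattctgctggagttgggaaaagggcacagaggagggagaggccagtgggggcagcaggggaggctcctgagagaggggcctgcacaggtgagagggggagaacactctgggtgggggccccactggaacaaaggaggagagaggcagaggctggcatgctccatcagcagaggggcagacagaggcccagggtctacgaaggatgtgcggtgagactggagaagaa

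The match in DKK1 begins 95 bases before its listed start, and those in SP5 begin 148, 109 and 84 bases before the listed start of SP5. Among the 41 members with an entry SP5 thus carries the most matches, with 0 and 0 counts in the REEP6 libraries against 2 and 5 in NC. Both TCF7 windows hold 0 matches. Each lies inside the annotated gene, which begins at 134114711, so the sequence at that first start was not searched. The windows lie 8005 bases apart. A start inside TCF7 is known to give a shorter TCF-1 that lacks the part binding beta-catenin. Which form belongs to which window was not determined. Counts over the whole gene do not separate the shorter form from the full one, so which of them rose was not measured.

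Other genes of the pathway, in 6 lists with 133 genes, were described in the same fit. Of the 94 tested, 18 were higher and 17 lower, or 37.2% in either direction against 25.1% of all genes tested, with a median log2 fold change of 0.07. With equal FPKM sums the counts were 13 higher and 24 lower, so that 35.1% of calls were higher, where it had been 51.4%. With limma on log2(FPKM + 1) the calls that ended included those of BIRC5, CELSR1, CELSR2, CREBBP, DAAM1, PLCB1, PTK7, ROR1, SDC1, SMARCA4, VANGL1 and VPS26A, and on log2(FPKM + 0.1) the same calls ended. The lists were chosen with earlier results of these data known, so their counts are a description.

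**Figure D4:**
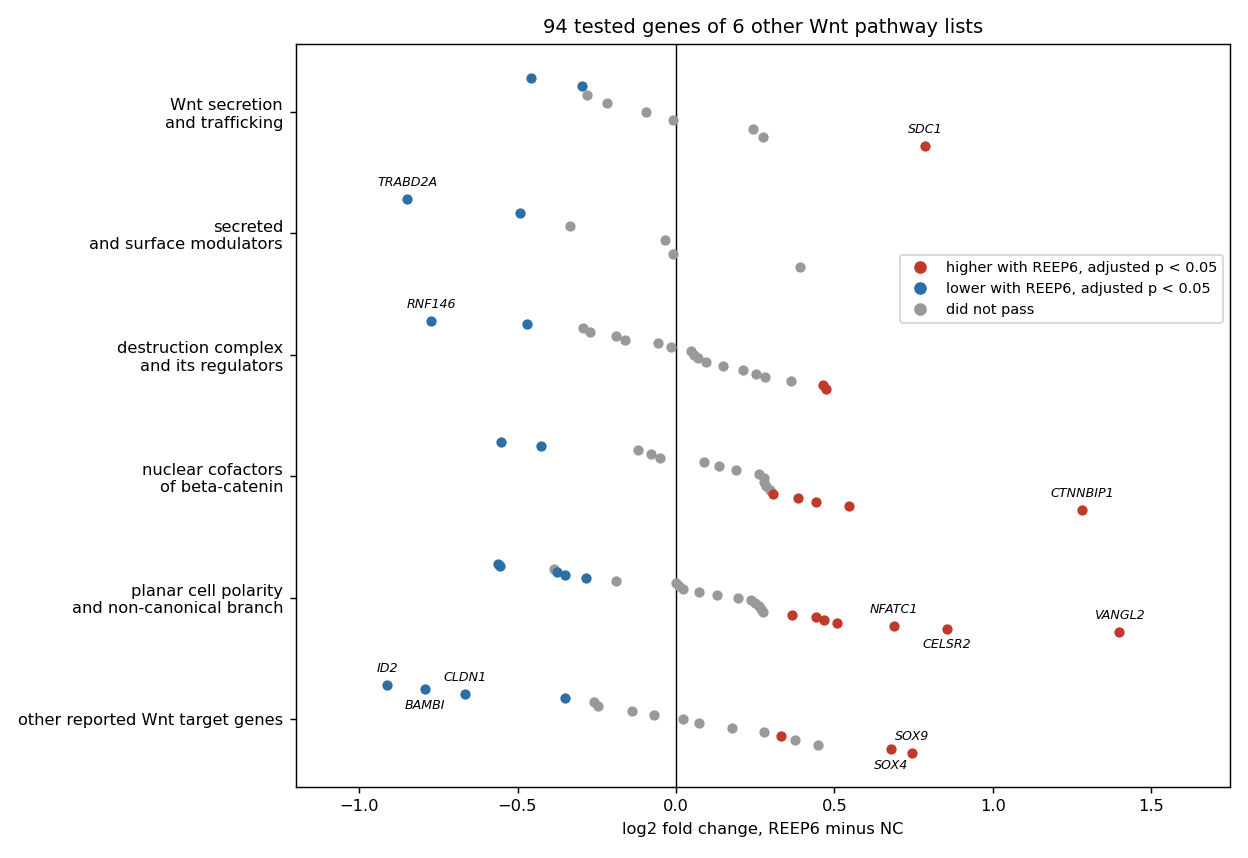
Log2 fold change of REEP6 minus NC for the 94 tested genes of 6 other Wnt pathway lists, 1 row of points for each list, ordered by value within the row; red and blue mark genes past an edgeR adjusted p of 0.05, and called genes beyond 0.6 are named. VANGL2 and CTNNBIP1 lie farthest to the right and ID2 farthest to the left.

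In ligand secretion and trafficking 9 of 11 genes were tested, 1 rose and 2 fell, or 33.3% called beside 25.1% of all genes tested. WLS, the carrier that brings Wnt ligands to the surface, had 31.9 and 30.3 FPKM in the REEP6 libraries, against 31.5 and 32.2 FPKM in NC (log2 fold change -0.01 ± 0.0847 SE, edgeR adjusted p 0.957). VPS35, a retromer subunit that recycles WLS, had 16.6 and 17.6 FPKM with REEP6 against 22.4 and 25.4 FPKM and fell (log2 fold change -0.46 ± 0.0921 SE, edgeR adjusted p 0.0073). A second retromer gene, VPS26A, fell by 0.30 on the log2 scale, a call that ended without either REEP6 library (adjusted p 0.216 without replicate 1 and 0.108 without replicate 2), without NC replicate 2 (0.197), without the filter (0.0561), with edgeR's filter (0.0543), with DESeq2 (0.0876) and without the abundance trend (0.0546). The proteoglycan gene SDC1 rose (log2 fold change 0.79 ± 0.193 SE, edgeR adjusted p 0.0168), which did not pass without NC replicate 1 (log2 fold change 0.57, adjusted p 0.0535).

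Secreted and surface modulators had 6 of 19 genes tested, with 0 higher and 2 lower, again 33.3%. TRABD2A, a membrane protease that inactivates Wnt ligands, had 1.78 and 2 FPKM with REEP6 against 3.33 and 3.61 FPKM in NC. It fell without overlap of the groups (log2 fold change -0.85 ± 0.134 SE, edgeR adjusted p 0.0025). IGFBP4, an IGF-binding protein that can also inhibit Wnt receptors, fell too (log2 fold change -0.49 ± 0.0902 SE, edgeR adjusted p 0.00478). KREMEN1 and KREMEN2, the receptors through which DKK1 removes LRP6, did not pass, with log2 fold changes of 0.39 and -0.01.

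Of the destruction complex and its regulators 19 of 24 genes were tested, and 2 were higher and 2 lower, or 21.1% called, below the 25.1% of all genes. RNF146, the ligase that removes Axin once tankyrase has marked it, had 9.11 and 7.86 FPKM with REEP6 against 15.8 and 13.8 FPKM in NC. The groups did not overlap, and the fall was 1.71-fold (log2 fold change -0.77 ± 0.118 SE, edgeR adjusted p 0.00212). The tankyrase gene TNKS2 fell by 0.47 on the log2 scale (edgeR adjusted p 0.00387), while TNKS did not pass (log2 fold change 0.15). GSK3A, 1 of the kinase genes that mark beta-catenin for decay, rose (log2 fold change 0.46 ± 0.0994 SE, edgeR adjusted p 0.00946) but not without REEP6 replicate 2 (adjusted p 0.0517), and GSK3B and CSNK1A1 did not pass (log2 fold changes 0.09 and -0.02). CXXC5, a Dishevelled-binding inhibitor, rose by a log2 fold change of 0.47 (edgeR adjusted p 0.00383).

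Nuclear cofactors of beta-catenin had 18 of 22 genes tested, with 5 higher and 2 lower, or 38.9% called beside 25.1% of all genes. CTNNBIP1, which codes for the small inhibitor ICAT that keeps beta-catenin off TCF factors, had 3.58 and 4.34 FPKM with REEP6 against 1.51 and 1.79 FPKM in NC. The REEP6 values stood far above the controls, a rise of 2.43-fold (log2 fold change 1.28 ± 0.199 SE, edgeR adjusted p 0.0023). Of the Groucho family genes TLE3 was higher (log2 fold change 0.55 ± 0.087 SE, edgeR adjusted p 0.00257) and TLE4 lower (log2 fold change -0.55 ± 0.117 SE, edgeR adjusted p 0.00924). TLE1 (log2 fold change -0.08, edgeR adjusted p 0.59) and AES (0.14, 0.322) did not pass, and TLE2 was below the filter. The co-activator gene BCL9 rose by a log2 fold change of 0.44, the remodeller gene SMARCA4 by 0.38 and the acetyltransferase gene CREBBP by 0.31, and TBL1XR1 fell by 0.43. These 4 calls were weaker: BCL9 ended without REEP6 replicate 2 (adjusted p 0.0649), SMARCA4 (0.0715) and TBL1XR1 (0.0773) without REEP6 replicate 1, and CREBBP without REEP6 replicate 1 (0.116), REEP6 replicate 2 (0.119) or NC replicate 2 (0.0585). With equal FPKM sums SMARCA4 (0.0945) and CREBBP (0.199) did not pass.

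The planar cell polarity and non-canonical list had 25 of 30 genes tested, with 7 higher and 5 lower, or 48.0% called, beside 25.1% of all genes (10.9% higher and 14.2% lower). Of the 5 lower genes 2 are not reported here by name. VANGL2, a core membrane protein of planar polarity, had 2.82 and 3.45 FPKM in the REEP6 libraries, against 1.08 and 1.33 FPKM in NC. The REEP6 values were well above both controls, and the rise was 2.64-fold (log2 fold change 1.40 ± 0.192 SE, edgeR adjusted p 0.00139). Its relative VANGL1 rose by a log2 fold change of 0.36, which did not hold without REEP6 replicate 1 (adjusted p 0.0681), without REEP6 replicate 2 (0.105) or with equal FPKM sums (0.116). The polarity cadherin gene CELSR2, above the filter only in the REEP6 libraries, had 1.27 and 1.12 FPKM against 0.706 and 0.644 FPKM (log2 fold change 0.85 ± 0.173 SE, edgeR adjusted p 0.00749). CELSR1 rose by 0.44 on the log2 scale, with an adjusted p of 0.0603 at equal FPKM sums, and CELSR3 did not pass (0.01).

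The pseudokinase co-receptor gene PTK7 rose by a log2 fold change of 0.47 (adjusted p 0.0604 without REEP6 replicate 1), and the calcium-branch factors NFATC1 (log2 fold change 0.69 ± 0.133 SE, edgeR adjusted p 0.00595) and NFATC3 (log2 fold change 0.51) rose as well. In the other direction, PLCB1, a phospholipase gene, fell by 0.55 on the log2 scale. ROR1, a receptor of WNT5A, fell by 0.35, which ended without REEP6 replicate 1 (adjusted p 0.109), REEP6 replicate 2 (0.189) or NC replicate 2 (0.152), without the filter and with DESeq2. The formin gene DAAM1 fell by 0.56, which ended without REEP6 replicate 2 (0.147) or NC replicate 1 (0.0836) and with DESeq2.

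Of 27 other genes reported as Wnt targets 17 were tested, and 3 rose and 4 fell, or 41.2% called, beside 25.1% of all genes (10.9% higher and 14.2% lower). SOX9, a progenitor factor, had 28.1 and 36 FPKM with REEP6 against 18.6 and 20.3 FPKM in NC, all REEP6 values being the higher ones (log2 fold change 0.74 ± 0.12 SE, edgeR adjusted p 0.00274). SOX4 rose by a log2 fold change of 0.68 (edgeR adjusted p 0.00148). BIRC5, which codes for survivin and follows cell division, rose by 0.33, which ended without REEP6 replicate 1 (adjusted p 0.213), without NC replicate 2 (0.13), with library totals (0.058), with equal FPKM sums (0.232), with 5 FPKM (0.0579) and without the abundance trend (0.0573).

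Among the falls, ID2, an inhibitor of helix-loop-helix factors, had 9.22 and 11.2 FPKM with REEP6 against 17.1 and 21.9 FPKM in NC. The groups did not overlap (log2 fold change -0.91 ± 0.15 SE, edgeR adjusted p 0.00297). BAMBI, a decoy receptor of the BMP and TGF-beta pathways, fell by 0.79 on the log2 scale (edgeR adjusted p 0.00652) and CLDN1, a tight junction gene, by 0.66 (0.00478). The Notch ligand gene JAG1 fell by 0.35, a call that ended without REEP6 replicate 1 (0.0698) or REEP6 replicate 2 (0.0958). CCND1, the cyclin D1 gene, had 70.6 and 73.2 FPKM against 66.2 and 63.4 FPKM (log2 fold change 0.18 ± 0.081 SE, edgeR adjusted p 0.138), and CD44 had a log2 fold change of -0.07. MYC, below the filter, had 48 and 24 counts against 25 and 30, with REEP6 replicate 1 apart from the other 3. ASCL2, MMP7, CDX1 and WISP1 were at 0 FPKM in all 4 libraries.

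Across 16 alternative settings 4 of the 9 called members, namely LGR5, DKK1, DKK3 and TCF7, kept their direction and passed wherever they were tested (the filter of 5 FPKM removed LGR5 and TCF7). WNT9A, LGR4, FZD2, FZD8 and APC missed the threshold in at least 1 setting, and 0 of the 9 changed sign. Without the filter on low counts 8 of 51 tested members were higher and 6 lower, beside 6.8% and 6.95% of all genes. With edgeR's own filter 6 of 36 tested members were higher and 6 lower, beside 10.2% and 11.6% of all genes, and with a filter of 5 FPKM 1 of 16 tested members was higher and 5 lower, beside 12.6% and 19% of all genes. With DESeq2 3 of 29 tested members were higher and 4 lower, beside 10% and 11.6% of all genes. In limma's test of log2(FPKM + 1) values, 2 of 29 tested members were higher and 5 lower, beside 4.85% and 9.73% of all genes, and without the abundance trend 3 of 29 tested members were higher and 6 lower, beside 9.57% and 13.1% of all genes. Leaving out REEP6 replicate 1, 4 of 29 tested members were higher and 5 lower, beside 7.19% and 9.73% of all genes. Leaving out REEP6 replicate 2, 4 of 29 tested members were higher and 3 lower, beside 8.47% and 10.6% of all genes.

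**Figure D5:**
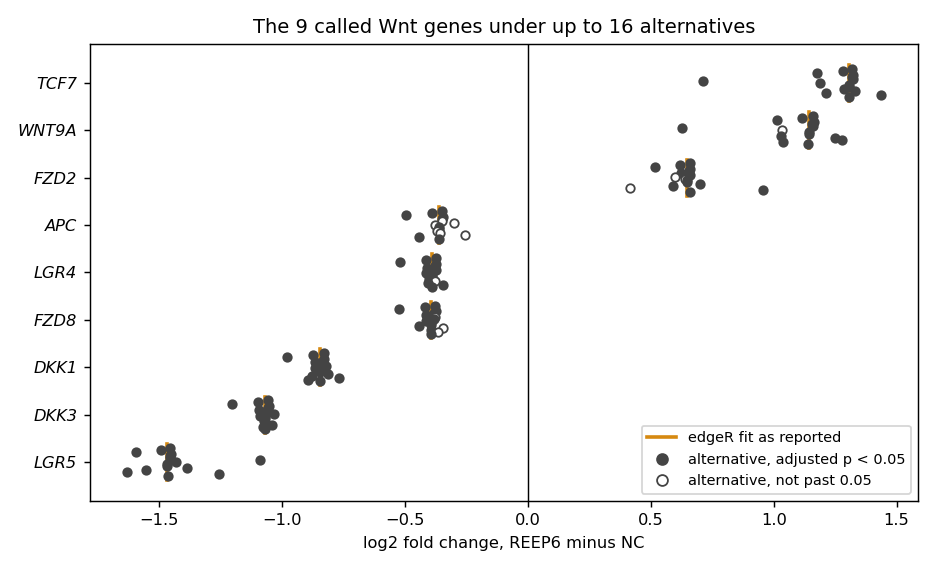
Log2 fold change of REEP6 minus NC for the 9 called Wnt genes in the edgeR fit as reported (orange line) and under up to 16 alternatives (points), filled where the adjusted p was below 0.05 and open where it was not. All points of a gene lie on 1 side of zero, and open points occur for APC, FZD2, FZD8, LGR4 and WNT9A.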

How the data were processed

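RNA of 4 SCC-15 samples, 2 with REEP6 overexpression and 2 negative controls, was analysed, with groups and replicate numbers from the sample titles. For 51103 Ensembl genes the authors deposited raw counts together with FPKM values in each sample. The submitters' processing notes name HISAT2, HTSeq 0.13.5 and GRCh38 without saying what each did. The annotation, the strand setting and the handling of shared reads were not given in the sources used here. Count divided by deposited FPKM and by library total gave 1 length per gene (relative tolerance 0.0001) for 100% of the 29161 genes with a count. Coordinates and exon overlaps came from GENCODE release 29 (GRCh38), where all 51103 identifiers matched.

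The counts of the 13077 genes that passed the filter were scaled by TMM. The quasi-likelihood test of edgeR 4.0.16 (R 4.3.3, two-sided, group as the only term, 2 residual degrees of freedom) was adjusted by Benjamini-Hochberg over all of them, with a threshold of 0.05. SE is the log2 fold change over the square root of F. Permuting 2 against 2 libraries cannot reach that threshold and was not used. Libraries of a group differed by more than counting noise (chi-square per degree of freedom 6.98 with REEP6 and 12.3 in NC). The test was checked on simulated data with a single spread for all genes. Some changes of every simulated size were missed there, most often the smallest. A member that did not pass may therefore still differ.

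The members and lists were chosen with earlier results of these data known. The rule named every called member, untested members with at least 40 summed counts, members whose groups did not overlap and up to 6 called genes per list and direction, except those not reported here. Other members and genes, such as VANGL1, MYC, WLS and CCND1, were added after their values were seen. Alternatives changed the scaling (median-of-ratios, library totals, equal FPKM sums), the filter (none, edgeR's own, 5 FPKM), the test (DESeq2 1.42.0, limma 3.58.1 on log2(FPKM + 1) or log2(FPKM + 0.1)), the abundance trend, robustness, the libraries included or a replicate block.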

Additional observations from a re-analysis of the deposited data

How the results depend on the processing

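With 2 libraries per group, 2 residual degrees of freedom limit every statement. Members higher and lower were 3 and 6 as reported. The replicate number as a block gave 9 and 12, other pathway genes 36 higher, and all genes 2957 higher and 3062 lower. Passing with the block but not as reported were DVL2, DVL3, FZD4, WNT3, LEF1 and TCF7L2, all higher. FZD1, FZD6, FZD7, LRP5, LRP6 and TCF7L1 did so too, all lower. The settings given above for these genes leave the block out. The labels do not say that a number pairs samples. Deviations of the replicate 1 libraries from their group means correlated at 0.271 across genes. With 2 libraries per group those of the other replicate mirror them and add no further comparison. No label ties same-numbered libraries together. Whether the numbers mark shared variation was not settled. Members higher were 8 without a filter, 6 with edgeR's filter, and 1 with 5 FPKM or with limma on log2(FPKM + 0.1). Members lower were 10 with equal FPKM sums. Leaving out 1 library gave 2 to 4 members higher and 3 to 7 lower, the 3 without REEP6 replicate 2. It gave 11 to 18 other pathway genes lower (17 as reported, 11 without REEP6 replicate 1), and 13 to 22 higher. All genes higher were 940 to 1495, against 1422 as reported, the lowest without REEP6 replicate 1, and 936 with 5 FPKM. Equal FPKM sums gave 661 higher and 2824 lower. Limma gave 10 other pathway genes higher at both pseudocounts, 634 genes higher on log2(FPKM + 1), and 597 higher and 1233 lower on log2(FPKM + 0.1), against 1854 lower as reported. The cause was not tested. Of 35 called genes of the other lists 17 passed in every setting where they were tested, and 0 changed sign. Low counts limit AXIN2, NOTUM, SP5 and most ligands.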
